A study of Mus musculus with 38 samples.

Results

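The mitochondrially encoded transcripts of the mouse left ventricle were taken as every row of the count and TPM tables whose gene symbol starts with mt-. This rule gave 13 of 29564 genes, and all 13 were protein-coding. They were measured in whole left ventricle homogenates of 38 wild-type C57BL6 mice, 1 library a mouse, in 4 groups named as in the sample titles. The non_failing group (n = 8) was labelled as receiving vehicle. The other 3 groups carried the HFpEF model (heart failure with preserved ejection fraction), which the study induced with a high-fat diet and L-NAME, an inhibitor of nitric oxide synthase, and they differed in what was given. HFpEF+Veh (n = 8) received vehicle, HFpEF+TYA-018 (n = 11) received TYA-018, an oral inhibitor of HDAC6, and HFpEF+SGLT2i (n = 11) received empagliflozin, an inhibitor of SGLT2. No group received a drug without the model, so a drug effect on normal hearts could not be told apart here. Libraries were made from polyadenylated RNA and held 21.5 to 59.3 M estimated counts (M, counts in units of 1000000), with a mean of 33.0 M. The GENCODE annotation of GRCm38 lists 37 genes on the mitochondrial chromosome. The other 24, 2 rRNAs and 22 tRNAs, had no row with an mt- symbol in the tables used and were not analysed here.

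Mitochondrial DNA is a small circle that is transcribed from both strands into long precursors. The tRNAs that lie between most of the coding genes are cut out of these precursors, which releases the mRNAs, and most of the mRNAs then receive a poly(A) tail. Every mitochondrially encoded protein is a subunit of a respiratory chain complex or of the ATP synthase, and each of those complexes also needs subunits made from nuclear genes. Heart muscle is densely packed with mitochondria, so these few genes take up a large part of its polyadenylated RNA.

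Complex I, the NADH dehydrogenase, was represented by 7 members (mt-Nd1 to mt-Nd6 and mt-Nd4l), complex III, the cytochrome bc1 complex, by 1 member (mt-Cytb), complex IV, the cytochrome c oxidase, by 3 members (mt-Co1 to mt-Co3), and complex V, the ATP synthase, by 2 members (mt-Atp6 and mt-Atp8). On GRCm38, 12 of the 13 are annotated on the plus strand and mt-Nd6, at chrM:13552-14070, the light-strand gene, is the only one on the minus strand, where it shares 14 bases with mt-Nd5 at chrM:11742-13565. Neighbours on the same strand also overlap. mt-Atp8 (chrM:7766-7969) and mt-Atp6 (chrM:7927-8607) share 43 bases, and mt-Nd4l (chrM:9877-10173) and mt-Nd4 (chrM:10167-11544) share 7 bases. These pairs are read from a common mRNA, so an estimate for either member depends on how the reads were divided. The mt-Atp8 sequence and the start of mt-Atp6 are shown because this overlap, in capitals, is a large part of the shorter gene.
mt-Atp8: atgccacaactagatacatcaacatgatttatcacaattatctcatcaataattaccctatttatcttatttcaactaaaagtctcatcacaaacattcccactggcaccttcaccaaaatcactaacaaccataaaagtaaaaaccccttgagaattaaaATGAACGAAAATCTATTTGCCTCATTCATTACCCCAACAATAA
mt-Atp6 start: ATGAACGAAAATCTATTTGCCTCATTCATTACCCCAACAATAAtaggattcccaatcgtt

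A further set of sequences bears on every value of 6 members. A stretch of chromosome 1 (chr1:24611535-24616197 on GRCm38, 4663 bases, minus strand) carries an almost unchanged nuclear copy of part of the mitochondrial genome, and the annotation lists gene models there that were counted beside the mitochondrial genes. Gm28661 matched mt-Co2, Gm10925 matched mt-Atp6, Gm28437 matched mt-Co3 and Gm10222 matched mt-Nd4l at 100% identity over 681, 678, 783 and 294 bases. Gm28438 matched mt-Nd3 at 99.71% over 345 bases with the single substitution T3C, counted from 1 at the 5′ end of the mitochondrial gene. Gm29216 matched 483 of the 1545 bases of mt-Co1 at 99.793% with the single substitution A1066T. The whole of mt-Nd4l is shown because only its last bases, in capitals, are lacking in the copy, so that nearly any read from it fits both gene models. The end of mt-Co2 shows the same in the pair with the most variable split of counts. The windows of mt-Nd3 and mt-Co1 are shown for the only base, in capitals, that differs between gene and copy.
mt-Nd4l: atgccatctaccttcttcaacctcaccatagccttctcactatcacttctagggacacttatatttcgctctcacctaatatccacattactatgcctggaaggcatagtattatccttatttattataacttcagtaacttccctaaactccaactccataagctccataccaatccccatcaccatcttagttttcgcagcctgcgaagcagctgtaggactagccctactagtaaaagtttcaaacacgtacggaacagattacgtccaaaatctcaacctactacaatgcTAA
mt-Co2 end: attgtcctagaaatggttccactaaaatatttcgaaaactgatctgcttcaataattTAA
Gm28661 end: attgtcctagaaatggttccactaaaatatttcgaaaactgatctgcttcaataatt
mt-Nd3 start: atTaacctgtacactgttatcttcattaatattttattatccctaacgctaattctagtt
Gm28438 start: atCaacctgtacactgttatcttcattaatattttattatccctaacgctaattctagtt
mt-Co1 window: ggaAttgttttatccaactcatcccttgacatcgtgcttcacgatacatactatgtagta
Gm29216 window: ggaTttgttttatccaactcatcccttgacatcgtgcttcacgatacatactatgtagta

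The remaining 7 members, mt-Nd1, mt-Nd2, mt-Nd4, mt-Nd5, mt-Nd6, mt-Atp8 and mt-Cytb, had no such counted copy of their own. The last 43 bases of mt-Atp8, which it shares with mt-Atp6, also lie in Gm10925. The chromosome 1 model that matches part of mt-Nd4, Gm28439, was at 0 counts in every library. Of 11 other gene models, Gm28439 among them, with at least 100 bases at 90% identity or more to a member, 9 were in the tables, and the highest median count among them was 557. Values are therefore given below for each gene as deposited and, for the 6 members with a copy, also for gene and copy together.

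The copies took a large part of the counts. As deposited, the 13 members held 28.5 to 39.5% of all counts over the 38 libraries. The 6 copies added 14.0% ± 1.32 (SD, n = 38). Members and copies held 47.2% ± 3.42 in the 8 non_failing mice, 45.1% ± 2.46 in the 8 HFpEF+Veh mice, 47.4% ± 2.52 in the 11 HFpEF+TYA-018 mice and 47.0% ± 3.21 in the 11 HFpEF+SGLT2i mice (SD). All 4 groups overlapped.

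How a pair's counts were split between gene and copy differed by gene and by library. For mt-Atp6 the nuclear copy received 84.9 to 93.8% of the counts of the pair (median 91.3%, n = 38), so that the mitochondrial gene itself was left with the small remainder in every library. For mt-Co3 the share of the copy was 46.9 to 83.9% (median 73.6%), for mt-Nd4l 29.2 to 71.8% (median 60.7%), and for mt-Nd3 31.6 to 69.5% (median 59.5%). For mt-Co1, whose copy covers less than the whole gene, it was 9.01 to 29.5% (median 15.6%). The split was widest for mt-Co2, where the copy Gm28661 received between 0.897% of the pair in HFpEF+TYA-018 V2550 and 81.0% in HFpEF+SGLT2i V2562. The Gm28661 share was 21.9 to 47.6% in non_failing mice (median 42.4%), 2.29 to 80.2% in HFpEF+Veh (median 24.0%), 0.897 to 67.7% in HFpEF+TYA-018 (median 25%) and 10.2 to 81.0% in HFpEF+SGLT2i (median 35.5%). The non_failing libraries lay inside the range of each HFpEF group.

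**Figure D1:**
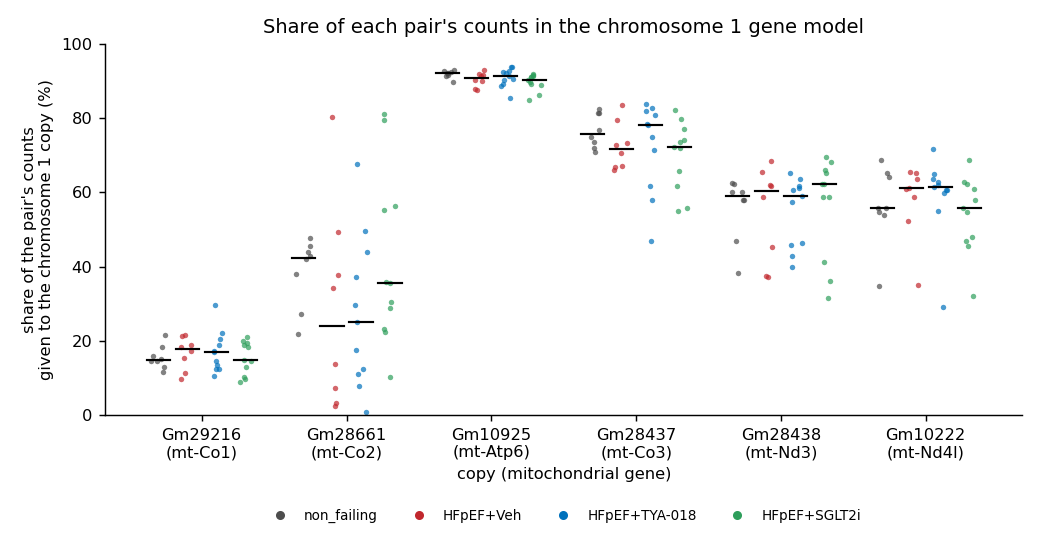
Share of the counts of each gene and copy pair that was assigned to the chromosome 1 copy, in percent, by group, with 1 point a library and a black line at the group median. The share for mt-Atp6 stays between 84.9 and 93.8% in all 38 libraries, while that for mt-Co2 runs from 0.897 to 81.0%.

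Gene and copy moved against each other. Across the 38 libraries, log2 CPM (counts per 1000000 counts) of mt-Co2 fell as that of Gm28661 rose, with Pearson's r = -0.70 (two-sided permutation p = 6e-05) and Spearman's rho = -0.98 (p = 1e-05, the smallest that 100000 permutations can give here). mt-Co1 and Gm29216 gave r = -0.70 and rho = -0.74, and mt-Co3 and Gm28437 gave r = -0.60 and rho = -0.57. These are values of the same libraries on the same depth scale, and a read given to one model of a pair is not available to the other. The other 3 pairs were not related in this way, with r = -0.15 for mt-Nd3, 0.08 for mt-Nd4l and 0.03 for mt-Atp6.

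The split also moved with properties of the libraries. The Gm28661 share rose with the log2 total count (r = 0.57, permutation p = 0.00026, rho = 0.52), although r was 0.06 within HFpEF+TYA-018 and 0.26 within non_failing. It rose more closely with the effective length that was estimated for mt-Nd5, a gene outside the copied stretch, with r = 0.89 and rho = 0.87 (both permutation p = 1e-05), and r was 0.87 without the 2 libraries farthest from the median. That r was 0.57 within non_failing, 0.99 within HFpEF+Veh, 0.93 within HFpEF+TYA-018 and 0.87 within HFpEF+SGLT2i. The effective length is the number of start positions that the authors' quantifier credits to a transcript after its correction for sequence, GC and position bias. The other pairs did not all move the same way. The share of Gm10925 also rose with that length (r = 0.58, rho = 0.63), as did that of Gm28437 (r = 0.43, rho = 0.38), whereas it fell for Gm10222 (r = -0.56, rho = -0.39) and for Gm29216 (r = -0.55, rho = -0.44). Without the 2 farthest libraries r was 0.54, 0.28, -0.50 and -0.40 for these copies in the same order. The Gm10222 share fell with the log2 total count as well (r = -0.58, rho = -0.37). Whether the bias correction sets the split was not tested. These relations belong to a family of 31, and each named as a relation here had a Benjamini-Hochberg adjusted p below the threshold of 0.05.

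With the copy included, mt-Co2 varied little between mice. Its deposited TPM was 45896, 50117 and 65704 in non_failing mice (lowest, median and highest), 17295, 65364 and 83791 in HFpEF+Veh, 26420, 68443 and 86495 in HFpEF+TYA-018 and 16911, 58056 and 80880 in HFpEF+SGLT2i. The lowest libraries in each of the vehicle and SGLT2i groups, V2532 and V2562, were those with the highest share for the copy. On the length of mt-Co2, gene and copy together gave 81676, 87342 and 92831 TPM in non_failing mice, 80439, 85768 and 88272 in HFpEF+Veh, 81835, 87277 and 91198 in HFpEF+TYA-018 and 85373, 90072 and 94556 in HFpEF+SGLT2i. The range over all 38 libraries narrowed from 5.11-fold for the gene alone to 1.18-fold for the pair, and the 4 groups overlapped on both scales.

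**Figure D2:**
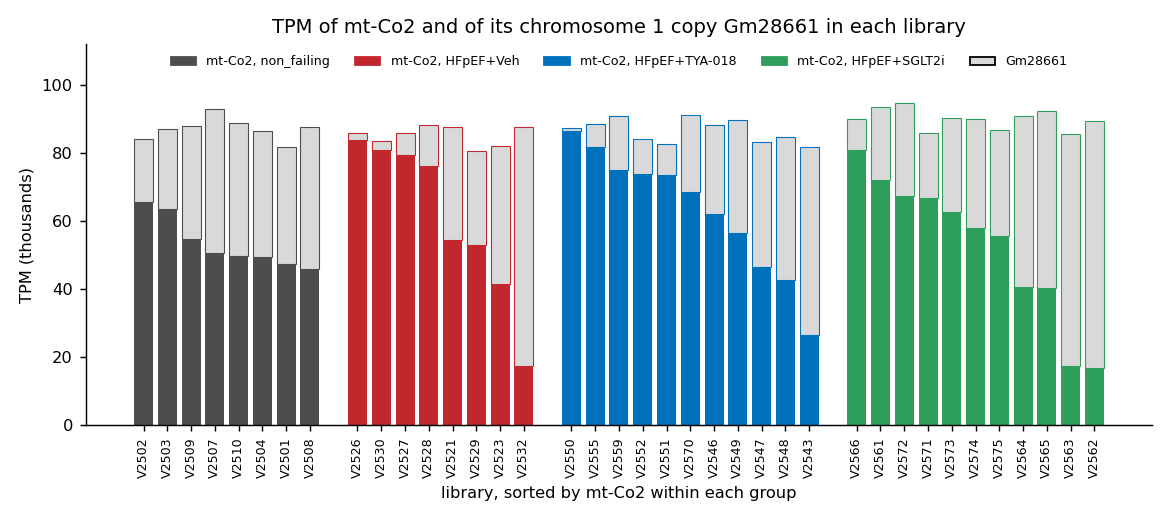
TPM of mt-Co2 and of its copy Gm28661 in each of the 38 libraries, stacked, with libraries arranged by group. The boundary between both models moves widely from library to library, while the height of the stack stays nearly level.

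Levels per length, in TPM, put the members on a common scale. As deposited, the order of the medians over 38 libraries was mt-Co1 (65503 TPM), mt-Co2 (57208), mt-Cytb (39252), mt-Nd1 (37827), mt-Atp8 (30996), mt-Nd4 (27007), mt-Co3 (25376), mt-Nd2 (18361), mt-Nd3 (17198), mt-Nd6 (16724), mt-Nd5 (6919), mt-Atp6 (6613) and mt-Nd4l (4997). Each of the 12 pairs of neighbours in this order overlapped in range. With the counts of gene and copy put on the length of the mitochondrial gene, mt-Co3 came first with a median of 96079 TPM, followed by mt-Co2 (87501), mt-Co1 (77723) and mt-Atp6 (76193). These 4 genes lay above all others, since the lowest library of any of them, mt-Co1 at 65049 TPM, was higher than the highest mt-Nd3 library, at 51268 TPM. mt-Nd3 was next at 41741 TPM, and mt-Nd4l, at 11519 TPM, was above only mt-Nd5. In this second order 11 of the 12 neighbouring pairs overlapped. mt-Atp6 moved from place 12 to place 4 and mt-Co3 from place 7 to place 1.

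**Figure D3:**
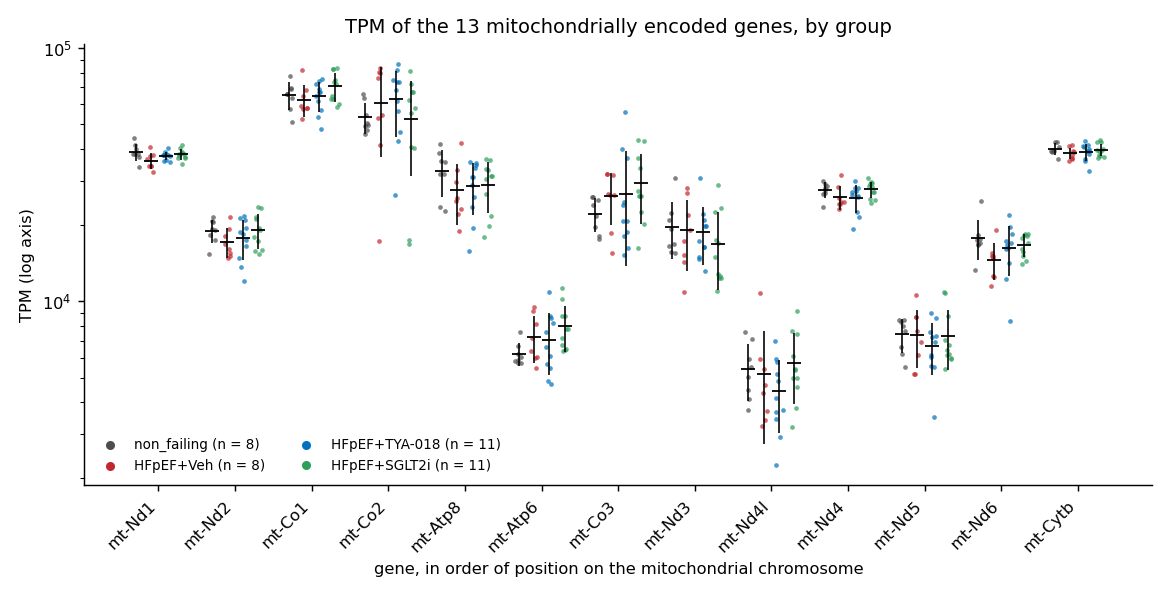
TPM of the 13 mitochondrially encoded genes as deposited, on a log axis, in the order of the genes along the mitochondrial chromosome, with 1 point a library, the 4 groups side by side, and black marks for the mean ± SD of a group. The points of the groups overlap for every gene, with mt-Cytb and mt-Nd1 the most compact and mt-Co2, mt-Nd4l and mt-Co3 the most scattered.

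Among complex I members, mt-Nd1, a core membrane subunit near the quinone site, was the most abundant as deposited. Its TPM was 33904, 38257 and 44199 in non_failing mice (lowest, median and highest), 32460, 35308 and 40541 in HFpEF+Veh, 35590, 37721 and 40282 in HFpEF+TYA-018 and 34897, 38015 and 41534 in HFpEF+SGLT2i. The vehicle-treated HFpEF mice had the lowest median, and all groups overlapped. mt-Nd2, a proton-pumping membrane subunit, had group medians of 19168, 16516, 18400 and 19199 TPM in the same order of groups. mt-Nd4, another proton-pumping subunit, had group medians of 27803, 24722, 26373 and 28363 TPM. mt-Nd5, the pumping subunit at the far end of the membrane arm, was much lower per length, with group medians of 7836, 7281, 6937 and 6420 TPM.

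mt-Nd6, the light-strand gene, lies opposite the end of mt-Nd5 and yet had a median 2.29 times that of mt-Nd5 as a ratio of TPM within a library (range 1.40 to 3.06, n = 38). Its TPM was 13279, 17187 and 24902 in non_failing mice (lowest, median and highest), 11521, 14958 and 19148 in HFpEF+Veh, 8339, 16758 and 21851 in HFpEF+TYA-018 and 13995, 17077 and 18499 in HFpEF+SGLT2i. The non_failing V2501 and the HFpEF+TYA-018 V2555 libraries were the extremes, and the groups overlapped. The level of mt-Nd6 also depends on the strand being kept in the library and used in counting, and the kit keeps it.

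The short complex I members had wide ranges within each group. mt-Nd3, a small subunit at the hinge between the membrane and peripheral arms, was 15522 to 30591 TPM in non_failing mice, 10842 to 28005 in HFpEF+Veh, 13152 to 30835 in HFpEF+TYA-018 and 10952 to 28889 in HFpEF+SGLT2i. mt-Nd4l, the smallest subunit of the group, was 3741 to 7550, 3209 to 10805, 2252 to 6973 and 3183 to 9193 TPM. The effective lengths behind these levels were 130 to 147 bases for mt-Nd3 and 90 to 109 bases for mt-Nd4l, and 37 to 42 bases for mt-Atp8.

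mt-Cytb, the only mitochondrially encoded subunit of complex III, was the steadiest member as deposited. It was 36521, 39434 and 42755 TPM in non_failing mice (lowest, median and highest), 35747, 38282 and 41372 in HFpEF+Veh, 32719, 39348 and 42879 in HFpEF+TYA-018 and 36905, 39163 and 43473 in HFpEF+SGLT2i. All 38 libraries lay within a 1.33-fold range, and the groups overlapped.

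In complex IV, mt-Co1, the subunit that holds the oxygen-reducing centre, was 51017, 66060 and 77908 TPM in non_failing mice as deposited (lowest, median and highest), 52576, 58630 and 81717 in HFpEF+Veh, 47777, 66819 and 75763 in HFpEF+TYA-018 and 58779, 72196 and 83101 in HFpEF+SGLT2i. mt-Co2, whose values are given above, carries the copper centre that receives electrons from cytochrome c. mt-Co3, a structural core subunit, was 17568 to 25838 TPM in non_failing mice, 15570 to 31876 in HFpEF+Veh, 15224 to 56052 in HFpEF+TYA-018 and 16173 to 43462 in HFpEF+SGLT2i. With Gm28437 added, mt-Co3 was 88612 to 106103, 89407 to 99065, 86500 to 105498 and 90249 to 100446 TPM, and the ranges overlapped. The HFpEF+TYA-018 V2555 library had the highest deposited mt-Co3 of all 38 and the lowest mt-Co1, mt-Cytb, mt-Nd2, mt-Nd4, mt-Nd5, mt-Nd6, mt-Nd4l and mt-Atp8.

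In complex V, mt-Atp6, the membrane subunit that forms the proton channel, was 5702, 5947 and 7604 TPM in non_failing mice as deposited (lowest, median and highest), 5459, 6775 and 9470 in HFpEF+Veh, 4714, 6589 and 10906 in HFpEF+TYA-018 and 6372, 7762 and 11308 in HFpEF+SGLT2i. With Gm10925 added it was 72309, 76434 and 82103, 72241, 74623 and 82013, 74799, 76687 and 84980, and 73903, 76098 and 81406 TPM. The higher deposited values of the SGLT2i group were thus not seen in the sum, where the ranges overlapped. mt-Atp8, a small structural subunit translated from the same mRNA, was 22685, 33758 and 41901 TPM in non_failing mice, 18901, 25337 and 42141 in HFpEF+Veh, 15791, 30882 and 35366 in HFpEF+TYA-018 and 17888, 31177 and 36584 in HFpEF+SGLT2i.

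The division of the counts of the 13 mRNAs among the complexes differed with the treatment of the copies. As deposited, complex IV took 52.1% (n = 38), complex I 32.0%, complex III 14.1% and complex V 1.76%. By group, deposited complex IV was 49.98% ± 1.72 in non_failing mice (SD over 8 mice), 52.4% ± 2.10 in HFpEF+Veh, 52.96% ± 3.06 in HFpEF+TYA-018 and 52.7% ± 1.90 in HFpEF+SGLT2i, and deposited complex I was 33.8% ± 1.31, 31.7% ± 1.76, 31.3% ± 2.39 and 31.5% ± 1.54. With the copies summed, complex IV took 56.6%, complex I 23.4%, complex III 9.87% and complex V 10.1%. In that sum, complex I was 24.5% ± 1.23 in non_failing mice (SD over 8 mice), 23.3% ± 1.2 in HFpEF+Veh (8 mice), 23.0% ± 1.48 in HFpEF+TYA-018 (11 mice) and 23.1% ± 1.13 in HFpEF+SGLT2i (11 mice). Complex IV was 55.3% ± 1.37, 56.6% ± 1.10, 56.9% ± 1.71 and 57.3% ± 1.08. These are shares of a whole, so a higher part for one complex is a lower part for the others, and no test was run on them.

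The spread between mice of a group fell when the copies were included. The within-group SD of log2 CPM (34 residual degrees of freedom) was 0.702 for mt-Co2 alone and 0.113 with its copy. It went from 0.491 to 0.140 for mt-Co3, from 0.331 to 0.102 for mt-Atp6 and from 0.167 to 0.104 for mt-Co1. mt-Nd3 went from 0.466 to 0.257 and mt-Nd4l from 0.416 to 0.331. Among members without a copy it was 0.0946 for mt-Cytb, 0.0972 for mt-Nd1, 0.133 for mt-Nd4, 0.208 for mt-Nd6, 0.218 for mt-Nd2, 0.334 for mt-Atp8 and 0.353 for mt-Nd5. mt-Atp8 and mt-Nd5, which have no counted copy of their own, were thus no steadier than mt-Atp6 as deposited.

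**Figure D4:**
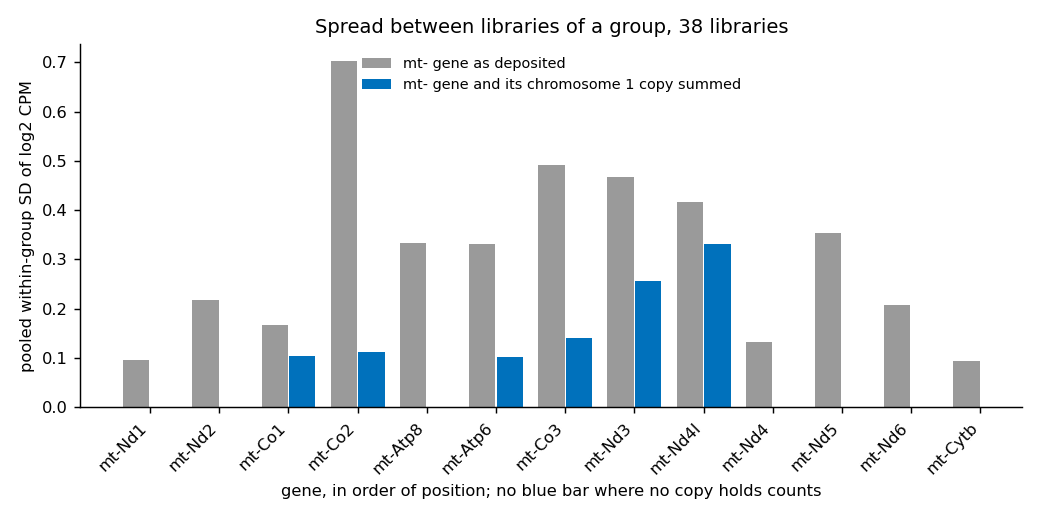
Within-group SD of log2 CPM for each of the 13 genes, alone and, for the 6 members with a copy, with gene and copy summed. The SD of mt-Co2 drops from 0.702 to 0.113, whereas that of mt-Nd4l drops only from 0.416 to 0.331.

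With the copies summed and each library expressed as its deviation from its group's mean, the members did not vary as one block. Of the 78 pairs of members, 64 had a positive r and 14 a negative one (median r = 0.52), and 48 positive pairs and 1 negative pair had an adjusted permutation p below 0.05. The closest pairs were mt-Nd4l with mt-Nd5 (r = 0.96), mt-Co2 with mt-Co3 (0.93), mt-Nd2 with mt-Nd5 (0.91), mt-Nd2 with mt-Nd4 (0.89) and mt-Co3 with mt-Nd3 (0.89). The negative pair was mt-Co3 with mt-Nd6, with r = -0.36 (adjusted permutation p = 0.0397) but rho = -0.22 (adjusted permutation p = 0.267). A pair of sets was seen in these values and was not chosen beforehand. mt-Co2, mt-Atp6, mt-Co3 and mt-Nd3, which lie close together on the heavy strand with mt-Atp8 among them, had r of 0.76 to 0.93 among themselves, and mt-Nd2, mt-Atp8, mt-Nd4l, mt-Nd4, mt-Nd5 and mt-Nd6 had r of 0.60 to 0.96 among themselves. Between these sets r ran from -0.36 to 0.34. mt-Nd1, mt-Cytb and mt-Co1 were in neither set. With the first and second set, r was 0.50 to 0.76 and 0.27 to 0.48 for mt-Nd1. It was 0.22 to 0.59 and 0.54 to 0.80 for mt-Cytb, and 0.01 to 0.40 and 0.46 to 0.72 for mt-Co1. Every gene of the first set was summed with a copy, and in the second only mt-Nd4l was. All values share the depth of the library, and the part of library quality in these sets was not tested.

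None of the 13 members was called in the comparison of HFpEF+Veh with non_failing mice, which asks what the model did to the ventricle, by edgeR's quasi-likelihood test with Benjamini-Hochberg adjustment over 13765 genes (adjusted p below 0.05). The percentage of all genes called there was 3.15. DESeq2 also called 0 of 13, and 4.35 percent of all genes. In the edgeR fit, 10 of 13 members had a lower estimate in HFpEF+Veh, with a median log2 fold change of -0.15 against 0.01 over all genes, and 5 had an unadjusted p below 0.05 where 15.9 percent of all genes did. mt-Nd6 was 0.32 lower on the log2 scale (SE 0.12, adjusted p = 0.154). In the scaled counts of that fit mt-Nd6 lay below the non_failing mean in 8 of 8 HFpEF+Veh mice. In TPM, HFpEF+Veh V2532 was at 19148, above the non_failing mean of 17761. mt-Nd1 was at -0.21 (SE 0.08, adjusted p = 0.176), mt-Nd4 at -0.20 (adjusted p = 0.272), mt-Nd2 at -0.26 (adjusted p = 0.307) and mt-Cytb at -0.16 (adjusted p = 0.312). Without non_failing V2507 mt-Nd1 was at -0.14 and mt-Cytb at -0.11. The extremes of the list were mt-Atp8 at -0.35 (SE 0.18) and mt-Co3 at 0.19 (SE 0.24). With the copies summed mt-Co3 was at -0.08 and 13 of 13 members had a lower estimate. The unadjusted count was unstable. It was 1 with limma on log2(TPM + 1), and over the 38 fits that each left out a library it ran from 1 to 6 and moved by over 1.5 times in 10. It was 1 without non_failing V2507, which had the highest mitochondrial share of its group (37.8%), 2 without any of HFpEF+Veh V2521, V2523, V2527 or V2529, and 3 without non_failing V2501, HFpEF+TYA-018 V2548 or V2549 or HFpEF+SGLT2i V2564 or V2574.

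Other quantities moved with this comparison, and their part in it was not tested. The summed level of 10 cardiomyocyte markers was 54201 CPM ± 5159 in non_failing mice (SD, n = 8) and 48582 ± 2690 in HFpEF+Veh (n = 8). That of 7 fibroblast markers was 600.1 ± 71.7 and 785 ± 225 CPM, and that of 5 red cell markers was 3302 ± 876 and 7857 ± 7131 CPM. The sum of 6 endothelial markers was 706 ± 88.0 and 795 ± 84.2 CPM, and that of 5 macrophage markers was 102 ± 16.6 and 128 ± 23.4 CPM. That of 8 hepatocyte markers had a median of 66.6 CPM in non_failing and 4.39 CPM in HFpEF+Veh, with 1812 CPM in the HFpEF+Veh V2523 library. No marker of these lists was at 0 in all libraries. In bulk tissue, fewer cells of a type and less RNA per cell cannot be told apart. Without V2523 still 0 of 13 members were called.

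No member was called between HFpEF+TYA-018 and HFpEF+Veh, the comparison for the HDAC6 inhibitor, where the percentage of all genes called was 1.93. DESeq2 also gave 0 of 13, and 2.92 percent of all genes. By edgeR 12 of 13 members had a higher estimate with TYA-018 (median log2 fold change 0.19, all genes -0.01), and 4 had an unadjusted p below 0.05 (7 with the copies summed, 0 with limma on log2(TPM + 1)) where 17.5 percent of all genes did. mt-Nd1 was 0.23 higher (SE 0.08, adjusted p = 0.103) and mt-Cytb 0.19 higher (SE 0.08, adjusted p = 0.167). In the scaled counts of the edgeR fit each was above the HFpEF+Veh mean in 11 of 11 treated mice. That did not hold in TPM. There the lowest treated library was under the HFpEF+Veh mean for mt-Nd1 (35590 against 35922) and mt-Cytb (32719 against 38407). mt-Nd6 was at 0.27 (SE 0.11, adjusted p = 0.187) and mt-Co1 at 0.22 (SE 0.10, adjusted p = 0.247). mt-Nd4l, the only member with a lower estimate, was at -0.09 (SE 0.19) and at 0.07 without the HFpEF+Veh V2532 library. In the fit with copies summed mt-Nd4l was at -0.01, with 11 members higher and 2 lower. With library size alone 10 of 13 were higher and 3 lower. With limma on log2(TPM + 1), which also changes the unit and the model, 7 were higher and 6 lower, and the median over all genes was at -0.08. Without HFpEF+Veh V2527 or without HFpEF+TYA-018 V2546 the count at an unadjusted p below 0.05 was 2. Marker sums also differed in mean here, and their part was not tested. That of fibroblasts went from 785 ± 225 CPM in HFpEF+Veh to 596 ± 97.6 with TYA-018 (SD over 8 and 11 mice), that of endothelial cells (6 genes) from 795 ± 84.2 to 677 ± 114 and that of cardiomyocytes from 48582 ± 2690 to 50164 ± 3572. The red cell sum was 7857 ± 7131 and 6686 ± 3373 CPM, and the hepatocyte sum had medians of 4.39 and 1.45 CPM.

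Between HFpEF+SGLT2i and HFpEF+Veh, the comparison for empagliflozin, 0 of 13 members were called by edgeR or DESeq2, and the percentage of all genes called was 0.85 by edgeR and 0.835 by DESeq2. Estimates were higher with SGLT2i for 11 of 13 members (median log2 fold change 0.14, all genes 0.01). An unadjusted p below 0.05 was found for 2 members against 10 percent of all genes (1383 of 13765). These were mt-Co1 at 0.25 (SE 0.10, adjusted p = 0.345) and mt-Nd6 at 0.23 (SE 0.11, adjusted p = 0.493). In the scaled counts each was above the HFpEF+Veh mean in 10 of 11 treated mice. Neither passed this unadjusted level without HFpEF+Veh V2527. The count was 1 with the copies summed and 0 with limma on log2(TPM + 1), and it moved by over 1.5 times in 25 of the 38 fits that each left out a library (range 0 to 4, the highest without HFpEF+Veh V2528). mt-Co2 had the lowest estimate, -0.18 with an SE of 0.29, and was at 0.11 when its copy was added. Without the copy it ran from -0.33 without HFpEF+Veh V2532 to -0.08 without HFpEF+SGLT2i V2562, and it also moved by over 1.5 times without HFpEF+Veh V2526, V2528 or V2530 or HFpEF+SGLT2i V2563. The fibroblast markers summed to 628 ± 82.3 CPM with SGLT2i, the cardiomyocyte markers to 47716 ± 5546 and the red cell markers to 3974 ± 1774 (SD over 11 mice), and their part was not tested.

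Between HFpEF+TYA-018 and HFpEF+SGLT2i, which sets both drugs side by side, 0 of 13 members were called and the percentage of all genes called was 0.0 by edgeR. DESeq2 called 0 of 13 members and 134 genes in all (0.973 percent). No member had an unadjusted p below 0.05 by edgeR, where 13.2 percent of all genes did. The estimates ran from -0.28 for mt-Nd4l (SE 0.17) to 0.39 for mt-Co2 (SE 0.26, adjusted p = 0.564). With their copies summed, mt-Nd4l was at -0.11 and mt-Co2 at 0.08. In the fit with copies summed, 2 members had an unadjusted p below 0.05, mt-Nd3 at 0.25 (edgeR adjusted p = 0.350) and mt-Atp6 at 0.14 (edgeR adjusted p = 0.358).

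Against non_failing mice, 0 of 13 members were called in HFpEF+TYA-018 or in HFpEF+SGLT2i by edgeR and by DESeq2, where the percentages of all genes called by edgeR were 7.39 and 6.45 and those by DESeq2 9.24 and 8.2. None of the 13 had an unadjusted p below 0.05 in either, against 22 and 19.6 percent of all genes. In HFpEF+SGLT2i that count was 1 with limma on log2(TPM + 1) and with a length offset, 2 with only the 2 groups in the fit, and 1 or 2 in 9 of the 38 fits that left out a library, with 2 without HFpEF+SGLT2i V2562. In HFpEF+TYA-018, 6 members were higher and 7 lower (median log2 fold change -0.01), from mt-Nd4l at -0.25 (SE 0.19) to mt-Co3 at 0.37 (SE 0.22). The count of lower members there was 4 without non_failing V2507 and 10 with limma on log2(TPM + 1). mt-Co3 was at 0.15 there without HFpEF+TYA-018 V2555 and at 0.09 with its copy summed, where mt-Atp8 at -0.17 and mt-Co1 at 0.10 were the extremes. In HFpEF+SGLT2i, 4 were higher and 9 lower (median -0.06), from mt-Nd3 at -0.28 (SE 0.21, and -0.17 without non_failing V2502) to mt-Co3 at 0.37 (SE 0.22). mt-Atp6 was 0.30 higher in HFpEF+SGLT2i (SE 0.15, adjusted p = 0.272). With the copies summed mt-Atp6 was at -0.06 and mt-Co3 at -0.02 there, and 12 of 13 members had a lower estimate. mt-Nd3 was at -0.27 in that sum, the only member with an unadjusted p below 0.05 (edgeR adjusted p = 0.220). All comparisons with one group share that group's mice, so their estimates are not independent of each other.

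**Figure D5:**
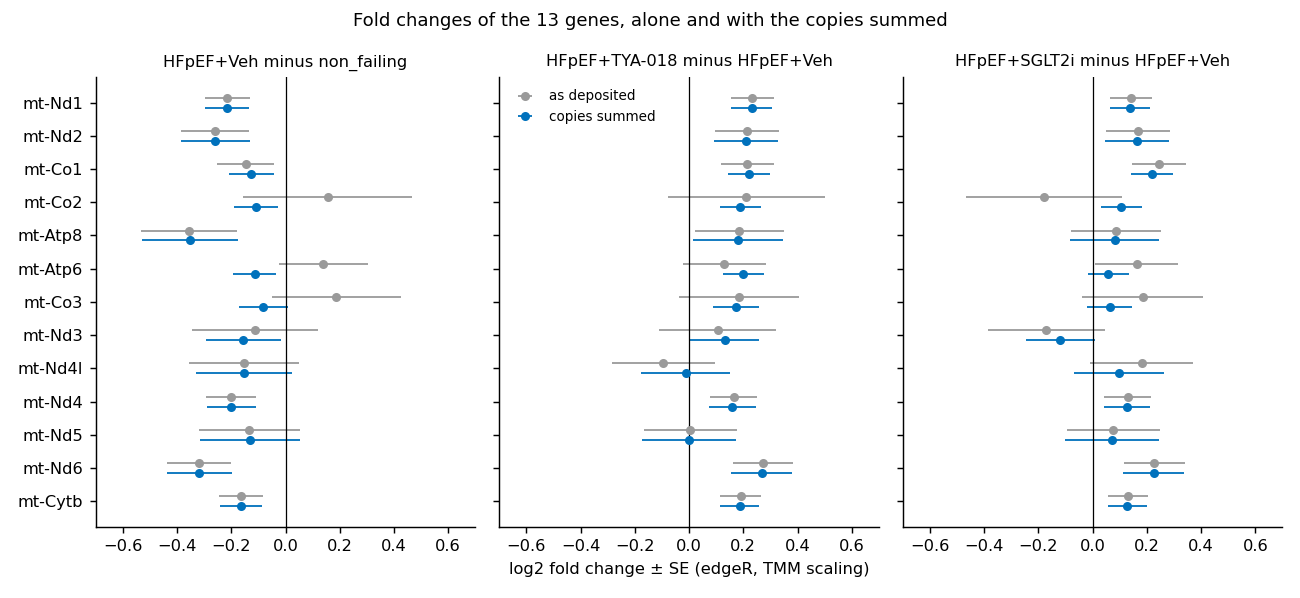
Log2 fold change of the 13 genes by edgeR in HFpEF+Veh against non_failing, HFpEF+TYA-018 against HFpEF+Veh and HFpEF+SGLT2i against HFpEF+Veh, with bars of 1 SE, for each gene as deposited and with the chromosome 1 copies summed. Summing the copies shortens the bars of mt-Co2, mt-Co3 and mt-Atp6, and the estimate of mt-Co2 in HFpEF+SGLT2i against HFpEF+Veh goes from -0.18 to 0.11.

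Ratios of TPM within a library do not depend on how libraries are scaled. Of 16 ratios designed, 14 could be computed, and none of the 84 tests over the 6 comparisons was called by the two-sided permutation test over mice after adjustment (smallest adjusted p = 0.212), while 5 had an unadjusted p below 0.05. The steadiest as deposited was mt-Cytb to mt-Nd1, genes at opposite ends of the heavy-strand coding run, at 0.919 to 1.15 over 38 libraries. Its difference between HFpEF+Veh and non_failing was 0.06 on the log2 scale (exact permutation p = 0.0785), the smallest p of that comparison. mt-Nd2 was 0.338 to 0.621 of mt-Nd1 although both lie next to each other but for tRNA genes, and mt-Nd5 was 0.181 to 0.413 of mt-Nd4.

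The ratios that involve a copied gene changed with the copies. mt-Co2 to mt-Co1 ran from 0.203 to 1.71 as deposited and from 0.942 to 1.31 with both genes' copies counted on the genes' own lengths. mt-Co3 to mt-Atp6, neighbours that are cut from the precursor at a junction without a tRNA, was 2.15 to 5.29 as deposited and 1.14 to 1.41 with the copies. mt-Atp8 to mt-Atp6, which share an mRNA, had a geometric mean of 4.07 as deposited and 0.371 with the copy. In TPM, which of both is the higher one thus changes when the copy is counted. As a mean share of all counts, deposited mt-Atp8 was the lower one, at 0.151% against 0.425%. mt-Nd4l to mt-Nd4, which also share an mRNA, had a geometric mean of 0.185 as deposited and 0.439 with the copy.

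The smallest p of all 84 was that of mt-Atp6 to nuclear Atp5b, the beta subunit of the same ATP synthase, between HFpEF+SGLT2i and non_failing. The ratio was 1.59, 1.97 and 2.16 in non_failing mice (lowest, median and highest) and 1.91, 2.47 and 3.56 in HFpEF+SGLT2i. The ranges overlapped and 10 of 11 treated mice were above the non_failing mean, with a log2 difference of 0.34 (exact permutation p = 0.00253, adjusted p = 0.212). With Gm10925 counted, the medians were 24.8 and 24.0, the log2 difference was 0.01 and the exact permutation p was 0.931. In HFpEF+SGLT2i against HFpEF+Veh this ratio again had the smallest p of its comparison as deposited (log2 difference 0.24, exact permutation p = 0.0654), and with Gm10925 counted it was at 0.13 (exact permutation p = 0.261).

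mt-Nd3 to mt-Co3 was lower in HFpEF+SGLT2i than in non_failing mice on both scales. As deposited it was 0.620, 0.891 and 1.28 in non_failing mice and 0.350, 0.525 and 0.90 in HFpEF+SGLT2i, a log2 difference of -0.61 (exact permutation p = 0.00835, adjusted p = 0.351). With the copies summed it was 0.410, 0.464 and 0.519 in non_failing mice and 0.363, 0.381 and 0.448 in HFpEF+SGLT2i, a log2 difference of -0.22 that lay below the non_failing mean in 11 of 11 mice (exact permutation p = 0.00122, adjusted p = 0.102). The corresponding ratios in HFpEF+Veh were 0.379, 0.456 and 0.495, and HFpEF+SGLT2i minus HFpEF+Veh was -0.16 (exact permutation p = 0.0170, adjusted p = 0.419). The groups overlapped in each of these comparisons. With the copies summed no ratio was called, and 4 of the 84 tests had an unadjusted p below 0.05. When the TPM values of gene and copy were added instead, each on its own length, again no ratio was called and 6 of 84 had an unadjusted p below 0.05 (smallest adjusted permutation p = 0.0934, for mt-Nd3 to mt-Co3). On that scale mt-Co2 to mt-Co1 was -0.08 in HFpEF+SGLT2i against non_failing (exact permutation p = 0.00348, adjusted p = 0.0974), against -0.29 as deposited (exact permutation p = 0.405) and -0.07 with the copies on the gene's length (exact permutation p = 0.189). mt-Co1 to mt-Nd1 had a higher mean in HFpEF+SGLT2i in all 3 forms, none past the adjusted threshold. Its log2 difference was 0.15 as deposited (exact permutation p = 0.0488, adjusted p = 0.687, 10 of 11 mice), 0.14 with the copies on the gene's length (exact permutation p = 0.00572, adjusted p = 0.240, 10 of 11 mice) and 0.15 with TPM added (exact permutation p = 0.00226, adjusted p = 0.0950, 11 of 11 mice).

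Between both drugs the smallest p was that of mt-Nd1 to Ndufv1, the nuclear flavoprotein subunit of complex I. Its ratio was 122 to 300.7 (median 193) in HFpEF+TYA-018 and 119 to 190.01 (median 142) in HFpEF+SGLT2i, a log2 difference of 0.35 (permutation p = 0.0199, adjusted p = 0.558). The same ratio had the smallest p between HFpEF+TYA-018 and HFpEF+Veh (log2 difference 0.31, exact permutation p = 0.0718). Between HFpEF+TYA-018 and non_failing it was that of mt-Nd4l to mt-Nd4 (log2 difference -0.21, exact permutation p = 0.201). That difference was -0.14 without non_failing V2508, and -0.12 with Gm10222 counted (exact permutation p = 0.250). Of the other nuclear ratios, mt-Co1 to Cox4i1, a nuclear subunit of complex IV, was 18.3 to 46.4 as deposited and mt-Cytb to Uqcrfs1, the Rieske iron-sulfur subunit of complex III, was 54.3 to 121 over the 38 libraries.

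Nuclear genes make the machinery that transcribes, cuts, modifies and stabilises these RNAs. A list of 60 such genes was described by counts, and 55 of them were tested. Between HFpEF+Veh and non_failing, where 3.15 percent of all genes were called, 0 were called higher and 1 lower by edgeR, which was Hsd17b10, a subunit of the mitochondrial RNase P that cuts tRNAs from the precursor (log2 fold change -0.44, SE 0.09, adjusted p = 0.00383, lower in 8 of 8 mice). Its TPM was 78.8, 100.4 and 125 in non_failing mice (lowest, median and highest) and 71.2, 79.5 and 91.0 in HFpEF+Veh, so the groups overlapped. Between HFpEF+TYA-018 and HFpEF+Veh, where 1.93 percent of all genes were called, 3 were called higher and 0 lower. These were Mrm1, an rRNA methyltransferase (0.44, adjusted p = 0.0205), Fastk, an RNA-binding protein needed for mt-Nd6 mRNA (0.27, adjusted p = 0.0310), and Hsd17b10 (0.31, adjusted p = 0.0486). In the scaled counts of the edgeR fit each was above the HFpEF+Veh mean in 11 of 11 mice. That did not hold in TPM. There the lowest treated library was under the HFpEF+Veh mean for Fastk (111 against 124), Mrm1 (3.43 against 4.02) and Hsd17b10 (71.7 against 79.3). The Fastk median was 120 TPM with TYA-018 and 125 TPM in HFpEF+Veh. The median over the list was -0.10 in the first comparison and 0.14 in the second, against 0.01 and -0.01 over all genes. Of the 55 tested, 13 had an unadjusted edgeR p below 0.05 in each of these comparisons, against 15.9 and 17.5 percent of all genes. None of the list was called in the second with limma on log2(TPM + 1), with library size alone, with a length offset, without V2523 and V2532 together or without HFpEF+Veh V2530. The Hsd17b10 call in the second did not hold in 26 of the 38 fits that left out a library, against 6 for Fastk and 1 for Mrm1. Of 10 other settings it did not hold in 4, and those of Fastk and Mrm1 did not hold in 5 each.

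None of the 55 was called between HFpEF+SGLT2i and HFpEF+Veh or between both drugs by edgeR, where 0.85 and 0.0 percent of all genes were called. An unadjusted p below 0.05 was found for 5 and 8 of them, against 10 and 13.2 percent of all genes. Against non_failing mice it was found for 8 in HFpEF+TYA-018 and 9 in HFpEF+SGLT2i, where 22 and 19.6 percent of all genes had one. Between HFpEF+TYA-018 and non_failing, where 7.39 percent of all genes were called, Ptcd1, an RNA-binding protein, was called higher (0.24, adjusted p = 0.0388) and Gabpa, a subunit of the transcription factor NRF2, lower (-0.29, adjusted p = 0.0132). Between HFpEF+SGLT2i and non_failing, where 6.45 percent of all genes were called, Elac2, which trims the 3′ end of tRNAs (0.26, adjusted p = 0.0131), and Polg, the DNA polymerase of mitochondria (0.21, adjusted p = 0.0434), were called higher by edgeR. Hsd17b10 (-0.29, adjusted p = 0.0310) and Fastkd5, an RNA-processing factor for junctions without tRNAs (-0.29, adjusted p = 0.0346), were called lower there. Over the 38 fits that left out a library, the call of Polg did not hold in 20, Ptcd1 in 14, Fastkd5 in 10 and Hsd17b10 in 7, while those of Elac2 and Gabpa held in all. Of 10 other settings, Polg and Ptcd1 were each not called in 4, and Fastkd5 and Hsd17b10 each in 2. The count in HFpEF+SGLT2i against non_failing was 1 without any of HFpEF+SGLT2i V2571, V2573 or V2575 and 7 without HFpEF+SGLT2i V2562, against 4 with all libraries.

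The central factors were not called in any of the 6 comparisons. Tfam, which packages mitochondrial DNA and starts its transcription, had group medians of 6.11 TPM in non_failing, 5.19 in HFpEF+Veh, 5.96 in HFpEF+TYA-018 and 5.89 in HFpEF+SGLT2i. Polrmt, the RNA polymerase, had 15.8, 17.9, 17.6 and 15.2 TPM in the same order. Lrpprc, which with Slirp stabilises the mRNAs, had 22.9, 17.2, 18.0 and 19.5 TPM, and was at a log2 fold change of -0.31 in HFpEF+Veh against non_failing (SE 0.14, edgeR adjusted p = 0.254). Slirp had 80.0, 76.9, 83.9 and 77.7 TPM, and was at 0.33 in HFpEF+TYA-018 against HFpEF+SGLT2i (SE 0.10, edgeR adjusted p = 0.138).

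Of the 23 nuclear genes of enzymes that charge mitochondrial tRNAs, all 23 were tested and 0 were called by edgeR in the 4 comparisons that do not pair a drug group with non_failing mice, where 5, 6, 5 and 1 had an unadjusted p below 0.05 (HFpEF+Veh against non_failing, TYA-018 and SGLT2i each against HFpEF+Veh, and TYA-018 against SGLT2i). Of all genes 15.9, 17.5, 10 and 13.2 percent had one there. DESeq2 called 1 in HFpEF+Veh against non_failing and 1 in HFpEF+SGLT2i against HFpEF+Veh, where it called 4.35 and 0.835 percent of all genes. Between HFpEF+TYA-018 and non_failing, where edgeR called 7.39 percent of all genes, Gatb, a subunit of the amidotransferase that makes glutaminyl-tRNA, was called higher (0.24, adjusted p = 0.0206) and Lars2, the leucyl-tRNA synthetase, lower (-1.32, SE 0.38, adjusted p = 0.0258). Lars2 was low throughout, at 0.792, 3.63 and 5.48 TPM in non_failing mice and 0.320, 0.930 and 2.79 TPM in HFpEF+TYA-018, and the groups overlapped. Over all 38 libraries its lowest and highest, V2555 and V2562, were also those of the mt-Nd5 effective length. A relation between them was not tested. Between HFpEF+SGLT2i and non_failing, where 6.45 percent of all genes were called, Vars2, the valyl-tRNA synthetase, was called higher by edgeR (0.23, adjusted p = 0.0399). The Vars2 call did not hold in 14 of the 38 fits that left out a library, and those of Gatb and Lars2 in 3 each. Of 10 other settings, Vars2 and Gatb were each not called in 3. With 2 and 1 of 23 called, the list was near the share of all genes in both comparisons.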

How the data were processed

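Left ventricle RNA of 38 mice was captured by poly(A) tail and prepared with a stranded kit. The authors quantified reads with Salmon (version 1.6.0 per the labels), with sequence, GC and position bias correction, on GENCODE M25 transcripts, and summed transcripts to genes. They deposited expected counts per gene, TPM and effective gene lengths, which are not normalized, per 1000000 transcripts, and in bases. The rows present summed to 950659 to 965392 TPM per library. The labels name a human build, which does not apply to mouse, and coordinates and sequences here are from GENCODE M21 on GRCm38. The study removed mitochondrial genes before its own tests.

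Expected counts were rounded, filtered with filterByExpr, scaled by TMM and tested with edgeR 4.0.16 (quasi-likelihood, 38 libraries in 1 fit, Benjamini-Hochberg over 13765 genes, R 4.3.3). DESeq2 1.42.0 and limma 3.58.1 (pseudocount 1) were alternatives. Copies were found with blastn 2.17.0 and paired with a member by position and identity. For gene and copy together, TPM of the gene was multiplied by the counts of both over its own. This sum was chosen after the values were seen. For the ratios the TPM values of gene and copy were first added, and that form was replaced after its results were seen, since the copy of mt-Co1 is shorter than the gene. Both are reported. Ratios and correlations were tested by permutation over mice, exact with a group under 10 and with 100000 resamples otherwise. The members, gene lists and tests were chosen with earlier results of these data known. Named were all members, listed nuclear genes called in a comparison (at most 6 by p), Tfam, Polrmt, Lrpprc and Slirp, called ratios and the ratio with the smallest p in each comparison. The other ratios given were chosen after their values were seen. Of 8 transcripts without a poly(A) tail that were listed to gauge capture, 0 had a row. Of 166 pairs of libraries compared within groups, none agreed within sampling noise. Mice are separate animals. The fits were tested on simulated data.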

Additional observations from a re-analysis of the deposited data

Results flagged for a closer look

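In groups of 8, a library was taken as standing apart when its gap to the nearest other library was more than 0.526 of the group's range. Of 80 group tests 9 did so, where chance gives about 5% of groups, and the groups of 11 were not tested. mt-Nd3 was 30590 TPM in non_failing V2502, next to 22250 TPM in the nearest library, and the same library had a mt-Co2 to mt-Co1 ratio of 1.288 next to 0.9239. mt-Nd6 was 24900 TPM in non_failing V2501, next to 18220 TPM. The share of all counts taken by the 13 members was 37.77% in non_failing V2507, next to 32.82%. The Gm10222 share of the counts of its pair with mt-Nd4l was 34.86% in non_failing V2508, next to 53.83%.

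In HFpEF+Veh, V2532 stood apart in 3 measures. Its mt-Nd4l level was 10800 TPM next to 5908 TPM, its Gm10222 share was 34.91% next to 52.41%, and its mt-Co1 level with Gm29216 counted was 90420 TPM next to 77310 TPM. The mt-Nd3 to mt-Co3 ratio was 1.717 in HFpEF+Veh V2521, next to 0.8786.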

How the results depend on the processing

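The count of members called was 0 in all 6 comparisons under 48 other settings, of which 38 each left out 1 library, and the count of ratios called was 0, with 1 exception, under the settings that apply to them. No paired analysis was possible because the mouse numbers differ in every group. Of 45 single values followed through these settings, 5 changed sign. Summing the copies turned mt-Atp6 in HFpEF+SGLT2i against non_failing to -0.05555 (-0.05331 also without V2523), mt-Co2 in HFpEF+SGLT2i against HFpEF+Veh to 0.1064 (0.08683), mt-Co3 in HFpEF+SGLT2i against non_failing to -0.01997 (-0.01756) and mt-Co3 in HFpEF+Veh against non_failing to -0.08235 (-0.06361). mt-Nd4l in HFpEF+TYA-018 against HFpEF+Veh ran from -0.1751 to 0.07073 over the libraries left out, the latter without HFpEF+Veh V2532. Leaving out 1 library gave 0 to 1 called ratios in HFpEF+SGLT2i against non_failing, with 1 without HFpEF+SGLT2i V2574. With library size alone the median log2 fold change of all genes was 0.08 in HFpEF+Veh against non_failing and -0.14 in HFpEF+TYA-018 against HFpEF+Veh, where it was 0.01 and -0.01 with TMM.

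The short counts of the nuclear lists were less stable, and the cause was not tested. For the RNA machinery list, HFpEF+Veh against non_failing gave 2 with only those groups in the fit, 4 without V2523 and V2532, and 1 to 2 over single libraries left out. HFpEF+TYA-018 against HFpEF+Veh gave 0 with library size alone, a length offset, limma, or without V2523 and V2532, 1 with only those groups, and 0 to 4 over single libraries. HFpEF+SGLT2i against HFpEF+Veh gave 0 to 1 over single libraries. HFpEF+TYA-018 against non_failing gave 1 with library size alone, no filter on low counts, only those groups or limma, and 1 to 3 over single libraries. HFpEF+SGLT2i against non_failing gave 2 with no filter, 1 with limma, and 1 to 7 over single libraries. For the synthetase list, HFpEF+Veh against non_failing gave 1 with DESeq2, 2 without V2523 and V2532, 1 with copies summed and without V2523, and 0 to 1 over single libraries. HFpEF+TYA-018 against HFpEF+Veh gave 0 to 1 over single libraries. HFpEF+SGLT2i against HFpEF+Veh gave 1 with no filter, 1 with DESeq2 and 0 to 1 over single libraries. HFpEF+TYA-018 against non_failing gave 1 with library size alone or limma and 1 to 3 over single libraries. HFpEF+SGLT2i against non_failing gave 0 with library size alone, no filter or limma and 0 to 2 over single libraries.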
